A study of Homo sapiens with 8 samples.

Results

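The genes described here carry the interferon response and antigen presentation: 44 genes were listed by name. Of these, 43 were represented by a probe set with a single gene symbol, among 18244 genes so represented on the array, and 40 passed a filter on low signal that kept 11946 genes. STAT2 had no such probe set named here, and IFI44, MX1 and SOCS1 lay under the filter. The listed genes comprise 6 transcription factors, 7 receptors and kinases, 14 interferon-induced effectors, 2 RNA sensors, 10 genes of class I presentation, 3 of class II presentation and 2 feedback inhibitors. DDX58, which encodes the RNA sensor RIG-I, has the newer symbol RIGI.

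The cells were SK-MEL-5, an established human melanoma line, whose mRNA was measured on 8 Affymetrix arrays, 2 for each of 4 groups. The drug set received DMSO at 25 uM, or THZ1, a covalent inhibitor of the kinase CDK7, at 250 nM for 6 h together with 25 uM DMSO. The siRNA set was transfected with a non-targeting siRNA (siCtrl) or with an siRNA against MITF, the transcription factor of the melanocyte lineage (siMITF). The labels leave the time between transfection and harvest unstated, and they do not say whether replicate arrays stem from different cultures. The p-values therefore cover the spread among these arrays, which may be technical. The labels name no interferon treatment. All results rest on 1 cell line.

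Interferons bind paired receptors on the cell surface, and the attached kinases JAK1, TYK2 and JAK2 activate STAT proteins. Complexes that contain IRF9 bind the interferon-stimulated response element (ISRE), and interferon gamma acts mainly through the gamma-activated site (GAS). IRF1 activates many of the same promoters, and IRF2 can repress them. Class I molecules, assembled from an HLA heavy chain and B2M, show peptides that TAP1 and TAP2 carry into the endoplasmic reticulum, and class II molecules, which CIITA switches on, show peptides from the endocytic route. Melanoma cells can carry both classes, and loss of the interferon or class I pathway is a known way for melanoma to escape T cells.

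Promoter sequence is shown for members that passed in at least 1 comparison, with members that share an element set side by side. RefSeq windows on GRCh38.p14, from 250 bases before to 50 after the gene's start, were matched for 34 of the listed genes. The ISRE core, GAAA and again GAAA with any 2 bases between them, was searched on both strands and was present in 19 of the 34 (55.9%) and in 3.65% of all 27305 windows. The GAS core TTCNNNGAA, which reads the same on both strands apart from its middle bases, was in 5 members (14.7%) and in 7.88% of all windows. The E-box CACGTG, the palindrome that MITF is known to bind, was in the windows of IRF9 and ISG20 (5.88% of members) and in 7.43% of all windows. The related E-box CATGTG was in those of JAK1 and IFI35 (5.88%) and in 11.2% of all windows. Each match is a description of letters in the window and not evidence of binding.

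The first set holds 4 members whose mRNA fell or rose with siMITF relative to the median gene. The bases run 5′ to 3′ on the gene's strand and end at the base before the start. Capitals mark the ISRE core and, in ISG20, also the E-box CACGTG.
ISG20, chr15:88638866-88639015, plus strand: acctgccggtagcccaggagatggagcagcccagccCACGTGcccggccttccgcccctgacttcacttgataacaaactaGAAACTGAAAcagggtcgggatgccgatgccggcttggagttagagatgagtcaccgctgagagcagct
OAS3, chr12:112938324-112938473, plus strand: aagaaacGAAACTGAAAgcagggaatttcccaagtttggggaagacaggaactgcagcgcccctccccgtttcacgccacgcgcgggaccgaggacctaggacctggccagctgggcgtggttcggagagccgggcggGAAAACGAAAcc
TAP2, chr6:32838740-32838889, minus strand: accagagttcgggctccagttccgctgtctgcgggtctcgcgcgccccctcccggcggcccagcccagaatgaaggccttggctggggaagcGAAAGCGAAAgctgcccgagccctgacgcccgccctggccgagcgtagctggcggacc
IFITM3, chr11:320861-321010, minus strand: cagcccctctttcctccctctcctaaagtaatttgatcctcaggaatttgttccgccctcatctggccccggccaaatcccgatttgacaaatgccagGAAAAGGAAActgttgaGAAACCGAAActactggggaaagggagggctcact
Relative to the median gene, ISG20, OAS3 and TAP2 were lower with siMITF and IFITM3 was higher. The same core thus stood before genes that moved in opposite directions on that scale.

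The second set holds 3 members that moved with THZ1 relative to the median gene, of which IFIT3 and IFIT5 fell and B2M rose. Capitals mark the ISRE core in either orientation, with GAAA runs on the strand shown or TTTC runs where it lies on the other strand. In B2M, 2 overlapping copies form 1 run of capitals.
IFIT3, chr10:89327827-89327996, plus strand: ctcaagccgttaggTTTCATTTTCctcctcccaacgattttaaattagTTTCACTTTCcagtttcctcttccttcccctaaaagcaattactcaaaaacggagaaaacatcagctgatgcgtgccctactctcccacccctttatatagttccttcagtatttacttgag
IFIT5, chr10:89414418-89414567, plus strand: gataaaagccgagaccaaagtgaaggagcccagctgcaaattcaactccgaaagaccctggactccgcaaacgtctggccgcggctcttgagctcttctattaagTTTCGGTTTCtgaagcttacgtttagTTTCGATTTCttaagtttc
B2M, chr15:44711367-44711516, plus strand: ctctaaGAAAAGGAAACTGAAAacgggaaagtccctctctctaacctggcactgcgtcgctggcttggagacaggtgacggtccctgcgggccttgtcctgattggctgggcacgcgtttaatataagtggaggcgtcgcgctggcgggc

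The third set holds 2 interferon regulatory factors that moved in opposite directions under the 2 treatments relative to the median gene. Per cell both had changes below 0 under both treatments. Capitals mark the GAS core and, in IRF9, also the E-box just before it.
IRF1, chr5:132490774-132490923, minus strand: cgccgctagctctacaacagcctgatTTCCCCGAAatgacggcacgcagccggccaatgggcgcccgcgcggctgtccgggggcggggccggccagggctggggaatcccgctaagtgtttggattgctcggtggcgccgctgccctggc
IRF9, chr14:24161115-24161264, plus strand: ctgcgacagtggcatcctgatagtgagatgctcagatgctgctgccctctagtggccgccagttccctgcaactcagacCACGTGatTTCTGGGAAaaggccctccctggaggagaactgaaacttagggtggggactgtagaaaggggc
Neither window held the ISRE core.

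The deposited signals are linear and scaled to cell number, and they were analysed as log2(signal + 16), so a fold change understates the change of dim genes. The median signal over all probe sets was 61.3 and 76.1 with DMSO, 51.1 and 67.6 with THZ1, 51.1 and 59.3 with siCtrl, and 40.1 and 32.5 with siMITF. Replicate arrays thus differed in overall level, and each comparison is given on 2 scales. A per-cell change is the difference of the deposited values, with an SE of 0.245 for each gene. A relative change, with a median SE of 0.0845, is taken after subtracting from each array the median deviation of its genes from their own means over all arrays. It says how a gene moved against the typical gene of its array. Genes that passed had an adjusted p under 0.05 in limma, adjusted by the Benjamini-Hochberg method over the 11946 tested genes. Per cell, fewer cells of a type and less RNA in each cell cannot be told apart in such bulk samples. MITF itself read 3436 and 3936 with siCtrl and 1747 and 1168 with siMITF, a per-cell fall of 1.35 on the log2 scale. The summed signal of 6 melanocyte lineage markers lay between 15651 and 41183 on the 8 arrays, against 269.3 to 534.3 for 10 leukocyte markers. Of these 10, 8 did not pass the filter and only CD68 and ITGAX did. The 5 fibroblast markers summed to 713.6 to 3392.6, and 2 of them, LUM and DCN, passed the filter. Both rose with THZ1 relative to the median gene (LUM by 0.42, DCN by 0.51), LUM fell (-0.43) and DCN rose (0.20) with siMITF, and both were lower with siCtrl than with DMSO (-0.30 and -0.85). The 4 keratinocyte markers summed to 317.2 to 888.6. The part of these markers in the results below was not tested.

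Interferon genes themselves were dim. All 7 interferon ligand genes with a probe set (IFNA2, IFNB1, IFNE, IFNG, IFNK, IFNL1 and IFNW1) read between 6.32 and 37.5 on every array, and none passed the filter at a signal of 39.2.

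**Figure D1:**
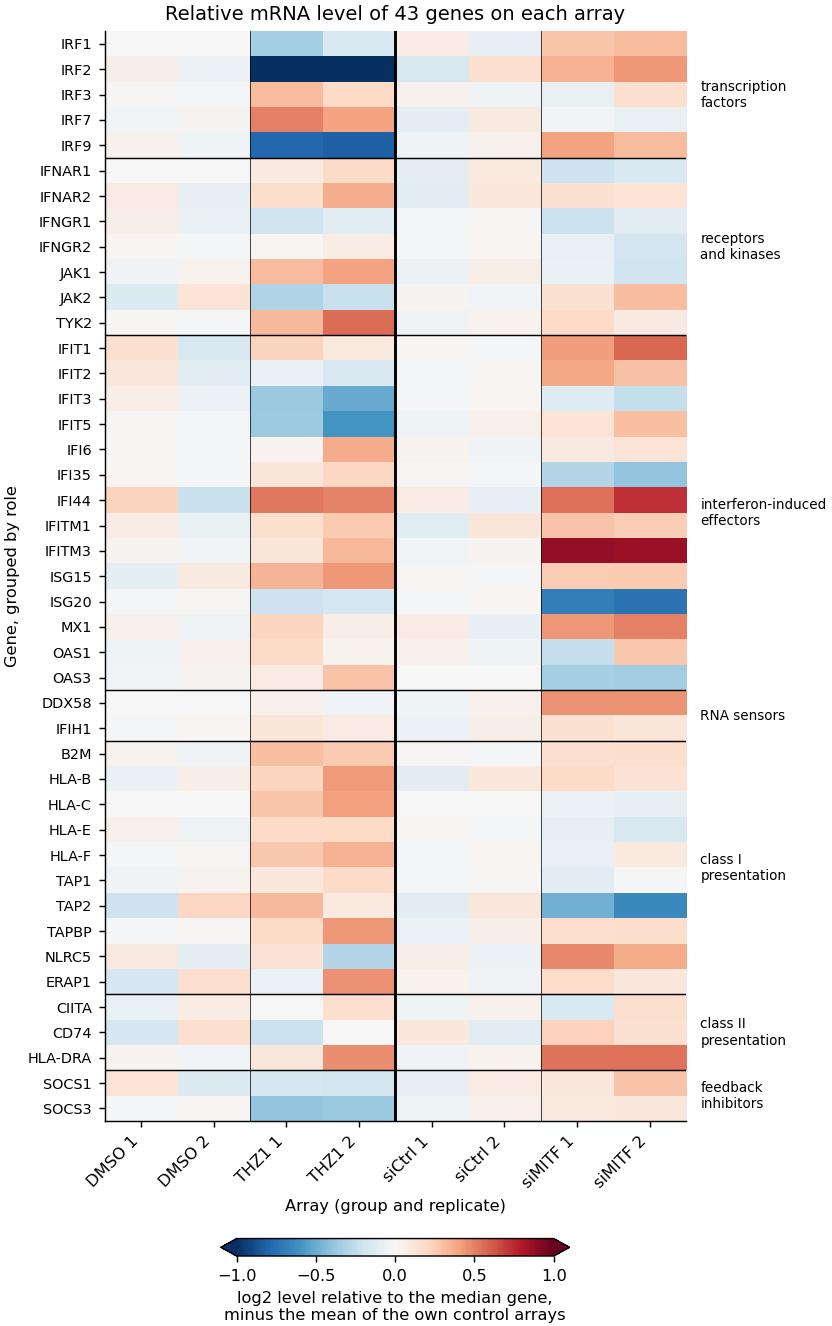
Relative level of 43 genes on each of the 8 arrays, as log2 level relative to the median gene minus the mean of the 2 control arrays of the same pair of groups (DMSO for the first 4 columns, siCtrl for the last 4). Colours saturate at 1 in either direction. IRF2 and IRF9 are low on both THZ1 arrays and slightly high on both siMITF arrays, while IFITM3 is high and ISG20 and TAP2 are low on both siMITF arrays.

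THZ1 and DMSO were compared to ask how inhibition of CDK7 acts on the melanoma transcriptome. Among the members the clearest change was a loss of IRF2 and IRF9 mRNA, the factors that repress and activate ISRE promoters. Relative to the median gene, 7 of 40 members fell (17.5%, against 21.1% of all tested genes) and 10 rose (25.0%, against 17.7%). In either direction 38.8% of all genes passed. Without a filter on low signal the split of members turned to 5 lower and 2 higher, and that of all genes from 2520 lower and 2112 higher to 2090 and 477. Per cell, only IRF2 and IRF9 fell (5.0% of members, against 10% of all tested genes) and no member rose, as did 0.0753% of all genes, so that 10.1% passed in either direction. With each gene's own variance no gene passed per cell in limma, and 1444 genes, 4 of them members, had an unadjusted p under 0.05. The median relative change was 0.16 over the members and 0.04 over all tested genes.

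The transcription factors moved apart. The IRF2 signal was 191 and 218 with DMSO and 53.9 and 57.1 with THZ1. Both THZ1 arrays lay far below both DMSO arrays and below all 4 siRNA arrays, which ranged from 98.0 to 159. IRF2 fell by 1.43 on the relative scale (SE 0.128, adjusted p = 3.02e-05 in limma), a fold of 2.69, and by 1.62 per cell (adjusted p = 1.41e-08). A single probe set measured it.

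IRF9, the DNA-binding partner of the STAT proteins, read 227 and 266 with DMSO and 99.1 and 132 with THZ1. The groups did not overlap, and the siRNA arrays ranged from 128 to 206. IRF9 fell by 0.80 on the relative scale (SE 0.0743, adjusted p = 3.60e-05) and by 1.0 per cell (adjusted p = 0.00139). Its 3 other probe sets bright enough to test fell less, by 0.28 to 0.30. The per-cell call did not hold with the mean of its probe sets, nor without DMSO replicate 2 or THZ1 replicate 1.

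IRF1, the activator that interferon gamma induces, fell by 0.25 on the relative scale (SE 0.0873, adjusted p = 0.0457). Its signal was 86.5 and 111 with DMSO and 52.1 and 86.5 with THZ1, so the groups overlapped slightly. The call is marginal: it held in 6 of 18 alternatives. IRF7, the inducible amplifier of type I interferon, rose by 0.45 (SE 0.0817, adjusted p = 0.00209), with signals of 72.0 and 96.6 under DMSO and 90.6 and 116 under THZ1 that overlapped before centring. IRF3, which responds first to viral nucleic acid, passed with a change of 0.26 (SE 0.0908, adjusted p = 0.045) in only 4 of 18 alternatives. With THZ1 replicate 1 or siCtrl replicate 2 left out its change turned to -0.05 and -0.02. The brightest probe set was chosen anew in each such run. The second brightest IRF3 probe set, with a mean log2 signal of 6.51 against 6.52, gave -0.02 over all arrays.

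Among the 7 receptors and kinases, none fell relative to the median gene, where 21.1% of all tested genes did. A rise was seen in 2 of them (28.6%, against 17.7%). TYK2 rose by 0.44 (SE 0.09, adjusted p = 0.00402) and JAK1 by 0.36 (SE 0.0814, adjusted p = 0.00675) relative to the median gene. Both kinases attach to the type I interferon receptor. The receptor chains IFNAR1, IFNGR1 and IFNGR2 did not pass, with changes of 0.14, -0.16 and 0.05. IFNAR2 did not pass at 0.27, and its 2 other bright probe sets gave -0.83 and -0.06. JAK2, which serves the interferon gamma receptor, did not pass at -0.26.

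Of 12 tested interferon-induced effectors, 3 fell (25.0%, against 21.1% of all tested genes) and 1 rose (8.33%, against 17.7%). IFIT3 and IFIT5, relatives that bind viral RNA, read 94.9 and 109, and 99.8 and 124, with DMSO. With THZ1 they read 53.0 and 67.3, and 59.0 and 68.4, below both DMSO arrays in each case. IFIT3 fell by 0.44 (SE 0.082, adjusted p = 0.00259) and IFIT5 by 0.48 (SE 0.0942, adjusted p = 0.00326) relative to the median gene. Both calls held under each of the 18 alternative runs that tested the gene. A single probe set measured IFIT3, of a design (_x_at) that can detect similar transcripts. The run without such probe sets could not test it. Per cell IFIT3 and IFIT5 did not pass, at -0.64 and -0.68. The neighbouring family members IFIT1 and IFIT2 did not pass, at 0.16 and -0.11.

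ISG15, a ubiquitin-like protein, rose by 0.38 (SE 0.0804, adjusted p = 0.00468). Its signal was 88.7 and 130 with DMSO and 102 and 151 with THZ1, overlapping before centring. ISG20, an RNA exonuclease, passed at -0.19 (SE 0.068, adjusted p = 0.0491), a call that held in 4 of 19 alternatives. The other 8 tested effectors did not pass, and neither did the RNA sensors DDX58 (0.005) and IFIH1 (0.10).

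Of 10 class I genes, 5 rose relative to the median gene, where 17.7% of all tested genes rose, and none fell, where 21.1% of all tested genes did. HLA-C rose by 0.34 (SE 0.0727, adjusted p = 0.00503) and B2M, the shared light chain, by 0.28 (SE 0.0687, adjusted p = 0.00951). The heavy chains HLA-B and HLA-F rose by 0.32 and 0.31, and TAPBP, the tapasin that loads peptides, by 0.31. B2M read 6350 and 7449 with DMSO and 6419 and 8284 with THZ1, so the deposited signals overlapped. None of the 10 passed per cell, where their median change was 0.05. All 7 other bright B2M probe sets had the same sign, with changes of 0.27 to 0.54. Probe sets for HLA genes can detect related HLA sequences, so single heavy chains are uncertain. The 5 calls were all lost without a filter, those of B2M and HLA-B also with quantile normalization. Leaving out DMSO replicate 2 ended that of B2M, DMSO replicate 1 or THZ1 replicate 2 that of HLA-B and HLA-F, and either DMSO replicate or THZ1 replicate 2 that of TAPBP.

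The share of genes that rose with THZ1 differed with signal level. The tested genes were divided by mean signal into 5 classes of equal size, from class 1 (dimmest) to class 5 (brightest, from a signal of 516). In class 5 the median relative change with THZ1 was 0.17 and 40.4% of genes rose, against 10.5% in class 1. B2M, HLA-B and HLA-C lie in class 5, whereas HLA-F lies in class 3 and TAPBP in class 4. The part of signal level in these changes was not tested. IRF2 lies in class 2, where the median change was -0.01 and 24.7% of genes fell, and IRF9 in class 3, where they were -0.07 and 32.4%.

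The class II genes CIITA, CD74 and HLA-DRA did not pass with THZ1, at 0.08, -0.11 and 0.29. The 3 other bright probe sets for CD74 gave 0.28 to 0.37. SOCS3, which shuts off JAK signalling, fell by 0.38 (SE 0.0704, adjusted p = 0.00226) relative to the median gene. It read 216 and 274 with DMSO and 133 and 185 with THZ1, without overlap, and its call held under each alternative run.

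**Figure D2:**
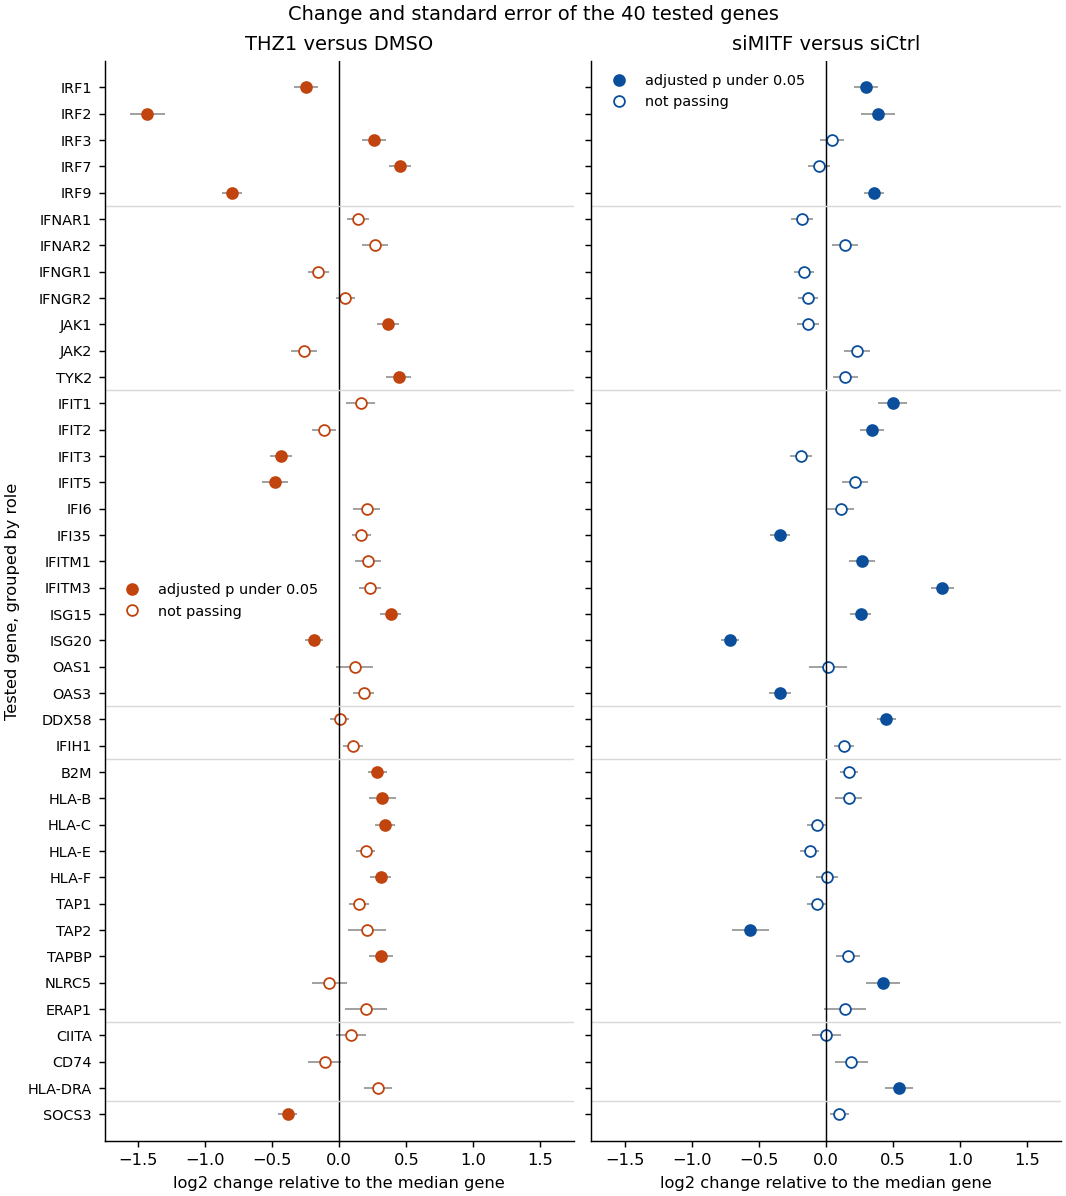
Relative log2 change (points) with its standard error (grey bars) of the 40 tested genes for THZ1 against DMSO (left) and siMITF against siCtrl (right), grouped by role from transcription factors at the top to the feedback inhibitor SOCS3 at the bottom. Filled points passed at an adjusted p under 0.05. IRF2 lies at -1.43 on the left and at 0.39 on the right, and IFITM3 at 0.87 is the farthest to the right in the second panel.

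Depletion of MITF and the control siRNA were compared to ask what the lineage factor maintains. Most genes had lower signals on the siMITF arrays. Per cell, 18 of 40 members fell (45%, against 63.4% of all tested genes) and none rose, as did 0.326% of all genes, so that 63.7% passed in either direction. With each gene's own variance no gene passed per cell in limma, and 5706 genes, 12 of them members, had an unadjusted p under 0.05. Without siCtrl replicate 2 the per-cell count of members was 4, and without siMITF replicate 2 it was 3. Relative to the median gene, 4 members fell (10.0%, against 24.7%) and 11 rose (27.5%, against 19.5%), and 44.2% of all genes passed in either direction. Without a filter on low signal this split turned to 9 lower and 4 higher. The count of 15 fell to 9 when either siMITF array was left out. The 11 risers include HLA-DRA, whose siRNA signals all lay under the filter level of 39.2. The median per-cell change was -0.49 over the members and -0.63 over all tested genes.

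IFITM3 stood out on the side of the risers. This membrane protein, which blocks entry of enveloped viruses, read 710 and 882 with siCtrl and 1037 and 844 with siMITF. The signals overlapped, while most genes of the siMITF arrays had become dimmer. IFITM3 rose by 0.87 on the relative scale (SE 0.0831, adjusted p = 6.21e-05), a fold of 1.83, and its per-cell change of 0.24 did not pass. It lies in class 5, the brightest, whose median relative change was -0.21 and of which 8.58% rose. Its relative call held under each of the 18 alternative runs that tested it. Its one probe set, however, is of a design that can detect the related IFITM genes. IFITM2, measured by another such probe set, rose by 0.62 (SE 0.0815, adjusted p = 3.09e-04), and IFITM1 by 0.27 (SE 0.096, adjusted p = 0.0452).

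ISG20 and TAP2 moved furthest the other way. ISG20 read 353 and 435 with siCtrl and 164 and 128 with siMITF, with no overlap. It fell by 0.71 on the relative scale (SE 0.068, adjusted p = 6.12e-05) and by 1.34 per cell (adjusted p = 1.83e-06). TAP2, a subunit of the peptide transporter, read 607 and 847 with siCtrl and 358 and 258 with siMITF. These groups too were apart, and TAP2 fell by 0.56 on the relative scale (SE 0.139, adjusted p = 0.00893) and by 1.20 per cell (adjusted p = 1.98e-05). Its 3 other bright probe sets gave -0.70 to -0.18. The relative call of TAP2 was lost without siCtrl replicate 2 and without siMITF replicate 2, and with quantile normalization.

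IFI35 fell by 0.34 (SE 0.073, adjusted p = 0.00435), and OAS3, which makes the activator of an RNA-degrading enzyme, also by 0.34 (SE 0.0813, adjusted p = 0.00767), relative to the median gene. The other bright OAS3 probe set gave 0.23, so the direction of OAS3 rests on the probe set. Bright genes fell in general with siMITF: the median relative change was -0.18 in class 4, where IFI35 and ISG20 lie, and -0.21 in class 5, where TAP2 lies. In class 5, 48.7% of tested genes fell. The call of IFI35 was lost with quantile normalization. The part of signal level in these falls was not tested.

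The regulators IRF2, IRF9 and IRF1 rose relative to the median gene with siMITF. IRF2 read 102 and 159 with siCtrl and 114 and 98.0 with siMITF, and IRF9 read 160 and 206, and 170 and 128, so their signals overlapped. Their relative rises were 0.39 (SE 0.128, adjusted p = 0.0317) and 0.36 (SE 0.0743, adjusted p = 0.00376), and IRF1 rose by 0.30 (SE 0.0873, adjusted p = 0.0195). Per cell all 3 had changes below 0, between -0.33 and -0.24, that did not pass. Of the 3 other bright IRF9 probe sets, 2 had the same sign. The call of IRF2 was lost without siCtrl replicate 1 or either siMITF array, and that of IRF1 without siCtrl replicate 2 or either siMITF array. IRF3 and IRF7 did not pass, at 0.05 and -0.05. Neither did any of the 7 receptors and kinases, where 44.2% of all tested genes passed in either direction.

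Other members also rose relative to the median gene. IFIT1 rose by 0.50 (SE 0.107, adjusted p = 0.00443), DDX58 by 0.45 (SE 0.0705, adjusted p = 8.41e-04), NLRC5, the activator of class I genes, by 0.43 (SE 0.129, adjusted p = 0.0233), IFIT2 by 0.34 and ISG15 by 0.26. The other RNA sensor, IFIH1, did not pass at 0.14 (adjusted p = 0.159). DDX58 read 37.2 and 50.8 with siCtrl and 41.8 and 31.7 with siMITF, so the arrays overlapped, and its per-cell change was -0.18. NLRC5 read 39.3 and 44.7 with siCtrl and 41.4 and 27.9 with siMITF, which also overlapped, and its per-cell change was -0.21. It was brighter with DMSO, at 48.3 and 54.1. The calls of IFIT1 and DDX58 held whichever array was left out. That of NLRC5 was lost without siCtrl replicate 2 or either siMITF array, that of IFITM1 without siCtrl replicate 1 or either siMITF array, that of IFIT2 without siMITF replicate 1, and that of ISG15 without any one of the 4 siRNA arrays. With quantile normalization IFIT2, ISG15, NLRC5, IRF1, IFITM1 and HLA-DRA did not pass. In all, 6 of the 11 risers (IRF1, IFIT1, IFIT2, IFITM1, DDX58 and NLRC5) lie in class 1, the dimmest. That class had a median relative change of 0.21 and 35.2% of its genes rose, and genes under the filter had a median of 0.43. The part of signal level in these rises was not tested. IFI44 and MX1, under the filter and not tested, had relative changes of 0.64 and 0.47.

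**Figure D3:**
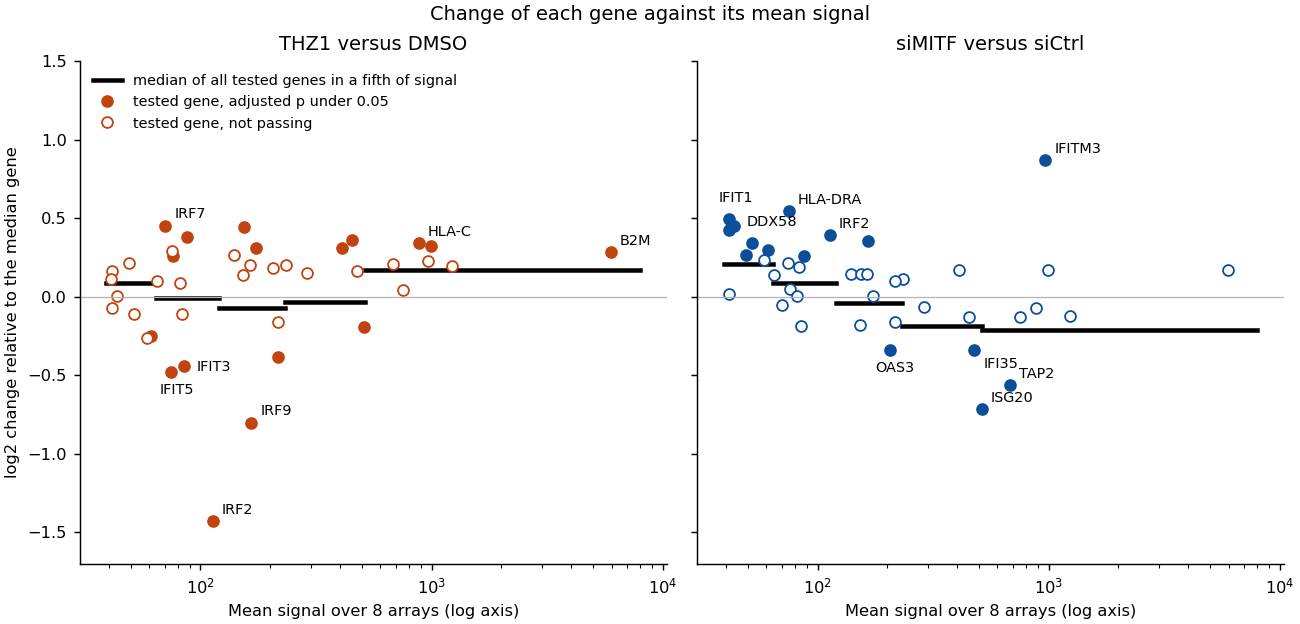
Relative log2 change of each of the 40 tested genes against its mean signal over the 8 arrays (log axis) for THZ1 against DMSO (left) and siMITF against siCtrl (right). Black bars give the median change of all tested genes in each of the 5 classes of signal, and filled points passed at an adjusted p under 0.05. With siMITF the bars descend from 0.21 to -0.21, IFITM3 lies above its bar, and with THZ1 IRF2 and IRF9 lie below theirs.

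Of the 10 class I genes, NLRC5 rose and TAP2 fell with siMITF relative to the median gene. Each is 10.0% of the class, against 19.5% of all tested genes that rose and 24.7% that fell. The siRNA signals of NLRC5, 27.9 to 44.7, lay near the filter level of 39.2. B2M was at 0.17, HLA-B at 0.17, HLA-C at -0.07, HLA-E at -0.12, HLA-F at 0.01 and TAP1 at -0.06, and none of these passed. Per cell HLA-C, HLA-E, HLA-F, TAP1 and TAP2 fell, and all but TAP2 lost this call without siCtrl replicate 2 or siMITF replicate 2. B2M read 5469 and 6395 with siCtrl and 4718 and 3900 with siMITF, apart from each other, and its per-cell change of -0.46 did not pass (adjusted p = 0.0828). TAP2 and TAP1 alternate along the chromosome with the proteasome genes PSMB8 and PSMB9, which make peptides for class I. With siMITF, PSMB9 fell by 0.51 (SE 0.07, adjusted p = 3.79e-04) and PSMB8 by 0.36 (SE 0.0703, adjusted p = 0.00258) relative to the median gene, while TAP1 between them did not pass. PSMB10, which encodes another catalytic subunit of that proteasome and was named after its value was seen, fell by 0.40 (SE 0.096, adjusted p = 0.00815).

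HLA-DRA, the class II alpha chain, read 25.0 and 35.0 with siCtrl and 31.2 and 23.1 with siMITF, near the bottom of the signal range, and the arrays overlapped. Its relative change of 0.54 passed (SE 0.104, adjusted p = 0.00239), while its per-cell change was -0.09. All 4 of these signals lie under the filter level of 39.2, and HLA-DRA was tested because it was brighter on the drug arrays. CD74 and CIITA did not pass, at 0.19 and 0.004. Of class II genes outside the list, HLA-DMA rose by 0.52 (adjusted p = 8.44e-04) at signals of at least 49.5 on the siRNA arrays. HLA-DQA1 had a change of 0.48 (adjusted p = 0.00192), but its 4 siRNA signals, 24.8 to 38.1, were all under the filter level, so it too was tested because of the drug arrays.

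The effects of the 2 treatments were then subtracted from each other within limma, a comparison in which the control groups are not shared. Relative to the median gene, the THZ1 effect was below the siMITF effect for 9 of 40 members (22.5%, against 20.2% of all tested genes) and above it for 8 (20.0%, against 21.4%), and 41.6% of all genes passed in either direction. IRF2 had the widest gap among members, -1.82 (SE 0.181, adjusted p = 8.27e-05), and it held per cell. IRF9 followed at -1.16 (SE 0.105, adjusted p = 4.94e-05), and IRF1 had -0.55 (SE 0.123, adjusted p = 0.00575). Relative to the median gene these 3 factors fell with THZ1 and rose with siMITF. Per cell their changes were below 0 under both treatments. IFIT5 at -0.70, IFITM3 at -0.64, JAK2 at -0.50, SOCS3 at -0.49, IFIT2 at -0.46 and DDX58 at -0.44 also passed. The other bright SOCS3 probe set gave 0.22, and the call of SOCS3 was lost with the mean of probe sets. The calls of JAK2 (DMSO replicate 2, siMITF replicate 2, THZ1 replicate 1) and IFIT2 (DMSO replicate 1, siMITF replicate 1) were lost without any one of the arrays named. That of JAK2 was also lost with quantile normalization.

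On the other side, TAP2 had the widest gap, 0.77 (SE 0.197, adjusted p = 0.0107), and it passed per cell as well. The per-cell gap of TAP2 was lost without DMSO replicate 1, siCtrl replicate 2, siMITF replicate 2 or THZ1 replicate 2, and that of IRF2 without siCtrl replicate 1. On the relative scale ISG20 (0.52), OAS3 (0.52), IFI35 (0.51), IRF7 (0.50), JAK1 (0.49), HLA-C (0.41) and HLA-E (0.32) passed too. The call of HLA-E was lost without any one of 6 arrays (all but DMSO replicate 1 and siMITF replicate 1). With quantile normalization HLA-C and HLA-E turned below 0, and the relative calls of TAP2, IFI35 and JAK1 were lost. The other bright OAS3 probe set gave 0.04. The call of OAS3 was lost with the mean of probe sets and without _x_at and _s_at probe sets. Per cell, IRF2 and TAP2 were the only 2 of 40 to pass (1 lower and 1 higher, or 2.5% each, against 0.946% and 9.84% of all genes, 10.8% in either direction). Leaving out 1 array moved this count to between 1 and 18 (18, of which 17 higher, without THZ1 replicate 1). With each gene's own variance none passed per cell, and 1508 genes, 2 of them members, had an unadjusted p under 0.05. The relative gap also differed with signal level. In class 5, where TAP2, HLA-C, HLA-E and IFITM3 lie, its median was 0.35 and 54% of genes were higher. In class 4, which holds ISG20, IFI35 and JAK1, these were 0.12 and 30.7%. In class 1, with IRF1, JAK2, IFIT2 and DDX58, they were -0.13 and 1.05%, and 19.1% were lower. IRF2, IFIT5 and IRF7 lie in class 2 and IRF9, OAS3 and SOCS3 in class 3. The part of signal level in these gaps was not tested. Relative to the median gene, ISG20 passed as lower and ISG15 as higher under both treatments. The share of all genes that did so was not counted. ISG15 read 69.6 and 83.6 with siCtrl and 62.1 and 49.0 with siMITF. Its deposited signals were thus lower with siMITF, and its per-cell change of -0.37 did not pass. The call of ISG20 with THZ1 held in 4 of 19 alternatives, and that of ISG15 with siMITF was lost without any one of the 4 siRNA arrays.

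**Figure D4:**
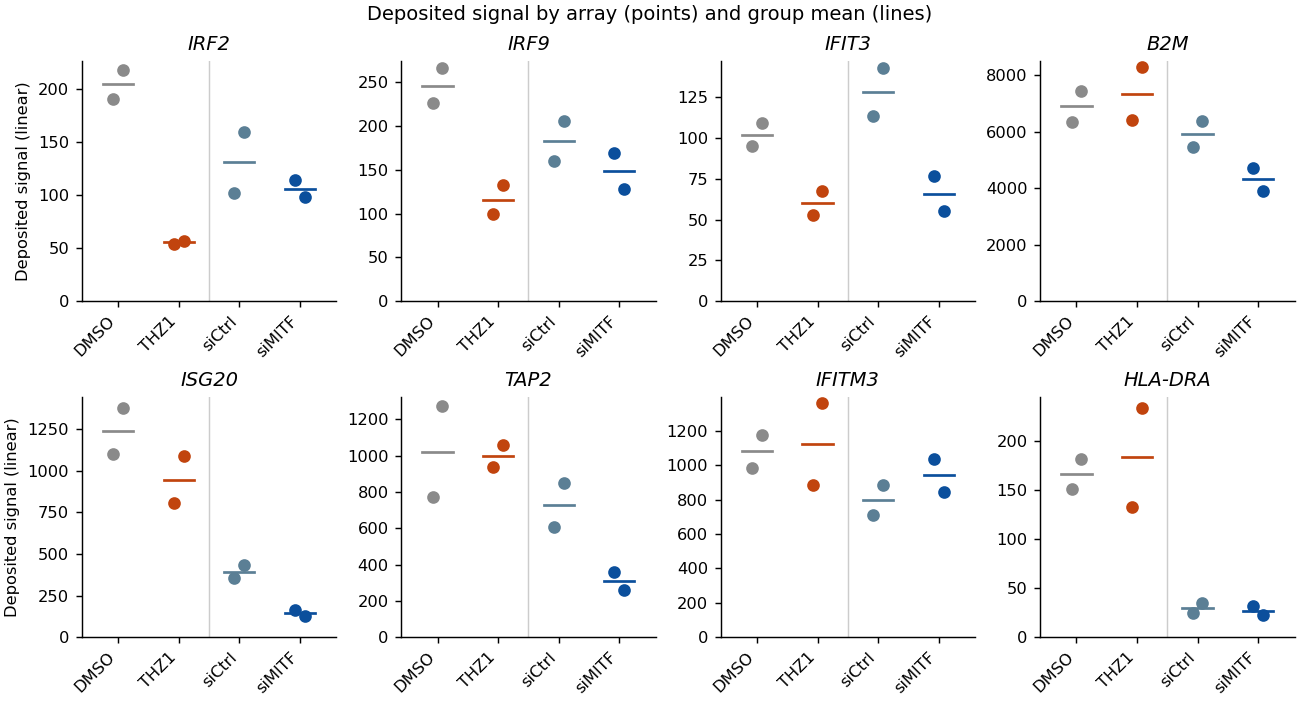
Deposited signal (linear, normalized to cell number) of 8 genes on each array, with points for the 2 arrays of a group and lines for their mean. IRF2 and IRF9 are lowest with THZ1, ISG20 and TAP2 are lowest with siMITF, and HLA-DRA is at 23.1 to 35.0 on the 4 siRNA arrays and at 133 to 234 on the 4 drug arrays.

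Among the members, the changes between the control groups that were farthest from 0 were those of HLA-DRA, ISG20 and CD74. The siCtrl and DMSO arrays differ in transfection and culture, and the median signal of the spike-in probe sets (28.5 and 28.7 against 53.7 and 48.0) differed between the 2 sets as deposited. These differences cannot be told apart, so only relative changes are given. Against DMSO, 10 of 40 members were lower with siCtrl (25.0%, against 14.5% of all tested genes) and 5 higher (12.5%, against 11%), and 25.4% of all genes passed in either direction.

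HLA-DRA read 151 and 181 with DMSO, 133 and 234 with THZ1, and no more than 35.0 on any siRNA array. It was lower with siCtrl than with DMSO (log2 change -1.69, SE 0.104, adjusted p = 3.97e-06). CD74, the chaperone of class II molecules, read 125 and 202 with DMSO and 55.4 and 57.1 with siCtrl, a relative change of -0.98 (SE 0.123, adjusted p = 4.50e-04). CIITA did not pass, at -0.10. HLA-DRA was tested because of its brighter signals on the drug arrays. In the wider list of presentation genes HLA-DPA1 was lower as well (-0.61), and HLA-DQB1 and HLA-DRB1 had changes of -0.86 and -0.66. The latter pair read 19.5 to 41.0 on the siRNA arrays and 73.3 to 113 on the drug arrays, so that they passed the filter through the group where they were high. In that list HLA-DPB1, named after its value was seen, did not pass at 0.07. The summed leukocyte markers were 396.6 and 471.9 with siCtrl and 459.8 and 534.3 with DMSO, and the leukocyte gene PTPRC read 10.6 to 31.3 over these 4 arrays.

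ISG20 was lower as well, at 1098 and 1378 with DMSO and 353 and 435 with siCtrl, a relative change of -1.31 (SE 0.068, adjusted p = 1.24e-06). IFI6, a mitochondrial antiviral protein, read 343 and 420, and 162 and 185, a change of -0.76 (SE 0.102, adjusted p = 6.51e-04). IFIT3 and SOCS3, which fell with THZ1, were higher with siCtrl than with DMSO, by 0.58 (adjusted p = 8.96e-04) and 0.53 (adjusted p = 6.10e-04). The calls of HLA-DRA, CD74, ISG20, IFI6, IFIT3 and SOCS3 held under each alternative run that tested the gene. These were 17 runs for HLA-DRA, 18 for CD74 and IFIT3, and 19 for ISG20, IFI6 and SOCS3. The brightest probe sets of HLA-DRA, CD74 and IFIT3 are of type _s_at or _x_at. The run without such probe sets did not test these genes. The other bright HLA-DRA probe set, also of such a type, gave -1.79, and one under the filter gave -0.02. The other members lower with siCtrl were HLA-C, IRF1, TAPBP, IFNAR2, JAK2 and IFNGR1, from -0.49 to -0.24, and the other higher ones were TYK2, IFNAR1 and IFIT2, from 0.42 to 0.28. Of these 9, HLA-C, IRF1 and TYK2 kept the call whichever array was left out. The other 6 lost it without at least 1 of the DMSO or siCtrl arrays (TAPBP without siCtrl replicate 1). HLA-C and IRF1 lost it with the mean of probe sets, IRF1 and TYK2 with each gene's own variance, and TYK2 without a filter. The 2 other bright HLA-C probe sets gave -0.02 and 0.09.

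Other genes of the same pathways were counted too. The shares of all tested genes that fell and rose on the relative scale were 21.1% and 17.7% with THZ1, and 24.7% and 19.5% with siMITF. Of 31 tested other interferon-induced genes, 3 fell (9.68%) and 5 rose (16.1%) with THZ1, and 4 fell (12.9%) and 6 rose (19.4%) with siMITF. The shares that rose were near those of all genes and the shares that fell were lower, a difference that was not tested. PLSCR1, a scramblase, fell under both treatments, by 0.47 (SE 0.0747, adjusted p = 0.00103) with THZ1 and by 0.55 (SE 0.0747, adjusted p = 3.65e-04) with siMITF. The partners PARP9 and DTX3L, which modify chromatin proteins, fell with THZ1 by 0.30 and 0.37. IDO1, the enzyme that consumes tryptophan, read 54.5 and 70.0 with siCtrl and 109 and 74.3 with siMITF. Its siMITF arrays were both above the siCtrl arrays, and its relative rise was 1.08 (SE 0.104, adjusted p = 6.21e-05) with a per-cell change of 0.45 that did not pass.

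Of 23 tested other presentation genes, 1 fell (4.35%, against 21.1% of all genes) and 8 rose (34.8%, against 17.7%) with THZ1. With siMITF 5 fell (21.7%, against 24.7%) and 8 rose (34.8%, against 19.5%). The 8 include HLA-DQA1, whose siRNA signals were all under the filter level and which was tested because of the drug arrays. The 23 also include HLA-DQB1 and HLA-DRB1, which read 19.5 to 41.0 on the siRNA arrays. RFXAP, a subunit of the factor that binds class II promoters, fell with THZ1 by 0.60 (SE 0.0858, adjusted p = 5.33e-04). PSME1 and PSME2, the proteasome activator that interferon gamma induces, rose with THZ1 by 0.37 and 0.39. MICA, a stress ligand seen by natural killer cells, read 415 and 478 with siCtrl and 191 and 153 with siMITF. It fell by 0.67 on the relative scale (SE 0.0744, adjusted p = 1.22e-04) and by 1.30 per cell (adjusted p = 3.53e-06).

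Of 7 tested genes of nucleic acid sensing, 2 fell with THZ1 (28.6%, against 21.1% of all genes): the adaptors MAVS, by 0.56 (SE 0.0795, adjusted p = 4.78e-04), and TICAM1, by 0.45 (SE 0.0754, adjusted p = 0.00137). IRF4, a lineage factor of melanocytes and lymphocytes, was the one that fell with siMITF, by 0.43 (SE 0.0799, adjusted p = 0.00199). It is 14.3% of the 7, against 24.7% of all genes. None of the 7 rose under either treatment, where 17.7% of all genes rose with THZ1 and 19.5% with siMITF. Of 17 tested brakes and adaptors of JAK-STAT signalling, 2 fell and 2 rose with THZ1 (11.8% each, against 21.1% and 17.7% of all genes). With siMITF 4 fell (23.5%, against 24.7%) and 2 rose (11.8%, against 19.5%). SOCS4 and SOCS2 fell with THZ1 by 0.67 and 0.52, and SOCS5 and STAT3 rose by 0.48 and 0.43. STAT3 also rose with siMITF, by 0.53 (SE 0.0881, adjusted p = 0.00115), while the phosphatases PTPN1 and PTPN11 fell by 0.39 and 0.28.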

How the data were processed

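Gene expression was measured on 8 arrays. The authors deposited linear signal intensities; per the submitters' processing notes they were summarised with MAS5 (version not given), and per the labels they were normalized to cell number with ERCC spike-in RNA added in proportion to cell number. How that normalization was calculated is not given in the sources used here. The 49495 probe sets included 45284 with 1 gene symbol, 1333 with several, 2682 with none, 100 for ERCC and 96 other controls. The brightest of a gene's single-symbol probe sets stood for it. Of the 43 used for the members, 17 (10 of type _x_at, 7 of type _s_at) may cross-hybridise to similar transcripts. Signals were analysed as log2(signal + 16), and genes at or above the 40th percentile of mean log2 signal over single-symbol probe sets (39.2) were tested.

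All 8 arrays entered 1 linear model with a mean for every group (limma 3.58.1, R 4.3.3), and variances were moderated by empirical Bayes. The fit had 4 residual degrees of freedom. The prior degrees of freedom were 5.97 on the relative scale and infinite per cell, which takes the per-cell SE as known without error and makes small per-cell p-values too small. The fit was tested on simulated data. Array number limits the precision. Replicate numbers are shared by the groups but are not stated to pair the arrays.

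The named genes were all members, and from other lists up to 4 genes per comparison with the lowest adjusted p. The members and lists were chosen with earlier results of these data known, and the comparison of siCtrl with DMSO was added after values were seen. Alternatives were other pseudocounts, filters, probe set choices, variances, normalization, a replicate block and leaving out each array. Promoters came from RefSeq (GRCh38.p14).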

Additional observations from a re-analysis of the deposited data

How the results depend on the processing

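Results are counts of the 40 tested members that passed. Per cell, the count was 2 with THZ1, 18 with siMITF and 2 for the difference of effects. With each gene's own variance all 3 were 0. The numbers do not pair the arrays by the labels (correlation of same-numbered deviations 0.11 in the drug set and -0.18 in the siRNA set): with a replicate block the per-cell counts were 4, 23 and 8 and the relative ones 16, 14 and 17 (15 for siCtrl against DMSO). With crossed numbers in the siRNA set, chosen after seeing the data, they were 13, 36 and 28 per cell. The difference count per cell was 7 with a pseudocount of 64, 5 without a filter, and 6 with the mean of probe sets or without _x_at and _s_at probe sets. Leaving out 1 array gave 1 to 6 with THZ1 (1 without DMSO replicate 2 or THZ1 replicate 1, 6 without THZ1 replicate 2), 3 to 23 with siMITF and 1 to 18 for the difference (18 without THZ1 replicate 1).

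On the relative scale the counts were 17 with THZ1, 15 with siMITF, 17 for the difference and 15 for siCtrl against DMSO. Without a filter THZ1 had 7 (5 lower, 2 higher) and the difference 11, and siMITF had 13 (9 lower, 4 higher). Without _x_at and _s_at probe sets THZ1 had 10 and siCtrl against DMSO 8. Own variances gave 8 with siMITF and 7 for siCtrl against DMSO, and a filter at the 60th percentile gave 11 for the difference. Leaving out 1 array gave 12 to 20, 9 to 16, 16 to 17 and 10 to 14. Over all genes, quantile normalization moved the split with siMITF from 2946 lower and 2329 higher to 1875 and 2659, and for the difference from 2409 and 2556 to 2902 and 1685.

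All-gene counts moved by over 1.5 times as follows. THZ1 per cell (1208) was 0 with own variances, 4760 with crossed numbers, and 244, 373 and 2123 without DMSO replicate 2, THZ1 replicate 1 or THZ1 replicate 2. siMITF per cell (7607) was 0 with own variances, and 1769 and 1852 without siCtrl or siMITF replicate 2. The per-cell difference (1288) ranged from 0 with own variances to 8217 with crossed numbers. On the relative scale THZ1 (4632) was 2567 without a filter, siMITF (5275) was 3459 and 3221 without siCtrl or siMITF replicate 2, and siCtrl against DMSO (3040) was 1482 without a filter, 1754 with own variances and 1744 to 1973 without a DMSO or siCtrl array.

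Relative changes that turned sign were, with the mean of probe sets, IFNAR2 with THZ1 (-0.23), OAS3 (0.0413) and SOCS3 (-0.22) with siMITF, and IFNAR2 (-0.57) and ERAP1 (-0.33) for the difference. Without _x_at and _s_at probe sets they were OAS3 with siMITF (0.21) and IFNAR2 for the difference (-0.49). With quantile normalization they were HLA-C with siMITF (0.21), and HLA-C (-0.0136) and HLA-E (-0.10) for the difference. IRF3 with THZ1 ranged from -0.0461 without THZ1 replicate 1 to 0.272 over the arrays left out, with -0.0172 without siCtrl replicate 2. The brightest probe set was chosen anew in each of these runs. Over all arrays the 2 brightest IRF3 probe sets gave 0.261 and -0.019. The cause was not tested.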
